A study of Mus musculus with 9 samples.

Results

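Chromosome 11 was examined as a partner of the mouse Dbp locus, which lies on chromosome 7. All 18333 probes on chromosome 11 were taken, out of 384942 on the array. The rule uses position alone, and the chromosome was picked with earlier results of these data known. Dbp encodes a PAR-domain basic leucine zipper transcription factor. Its transcription is driven in daily cycles by the heterodimer of CLOCK and BMAL1, the activating arm of the circadian clock. Chromosome conformation capture-on-chip (4C) ligates DNA fragments that lie close together in crosslinked nuclei, amplifies the fragments joined to 1 locus, and reads them on a tiling array. Contacts between chromosomes are known to be spread over broad regions rather than over single fragments. RefSeq places several clock genes on chromosome 11, among them Per1 and Nr1d1, which encode repressors of the clock, and Csnk1d, which encodes a kinase of PER proteins. The sources used here name no genome build for the probe coordinates, so no gene was assigned to a window. No probe sequence was at hand, so none is shown.

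Mouse embryonic fibroblasts were synchronized with dexamethasone for 2 h and measured on 9 two-colour arrays, with 4C DNA in Cy5 over digested genomic DNA in Cy3. Bmal1-/- cells, which lack BMAL1, were harvested at circadian time (CT) 34 and CT22 h, 1 array each. An independent wild-type (WT) line 2 was harvested at CT34 and CT22, 1 array each, although its array names carry 36 and 24. WT line 1 was harvested at CT22, CT26, CT30, CT34 and CT46, 1 array each. Per the labels, the Bmal1-/- cells and WT line 1 came from siblings of 1 mating scheme, and WT line 2 came from another cross and was grown in another serum mix. Each line thus had 1 array per time, and genotype and cell line cannot be told apart in Bmal1-/- cells. The arrays hold genomic contacts and no RNA, so the loss of Bmal1 itself was not checked here.

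Values are log2 ratios centred on the median of each array. A high probe was one above the 95th percentile of its own array, taken over the 365587 probes off chromosome 7. By this rule about 5% of probes off chromosome 7 are high on every array, and a share above that is an excess within the array. The threshold lay at 2.73 and 2.16 on the log2 scale in Bmal1-/- at CT34 and CT22, at 0.52 and 0.51 in WT line 2, and between 1.64 and 2.07 in WT line 1. The SD over probes off chromosome 7 followed the same order, with 1.01 and 0.82 in Bmal1-/-, 0.36 and 0.35 in WT line 2, and 0.72 to 0.82 in WT line 1. A mean log2 ratio therefore depends on the width of its array, whereas the share of high probes is set by ranks within the array. Precision between groups is set by the small number of arrays. Intervals given for a share are Clopper-Pearson (exact, 95%) and hold counting error alone. They take probes as independent, while high probes clustered along the chromosome, so they may be too narrow.

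Chromosome 11 carried an excess of high probes on every array. In Bmal1-/- cells 7.69% of its probes were high at CT34 and 7.20% at CT22. In WT line 2 the shares were 5.91% and 6.05% at CT34 and CT22. In WT line 1 they were 8.24%, 8.38%, 7.93%, 7.62% and 8.02% from CT22 to CT46. The 5 WT line 1 arrays overlapped with Bmal1-/- CT34 and lay above both WT line 2 arrays. The exact interval of a single array was narrow, for example 5.57% to 6.26% at WT line 2 CT34 and 7.24% to 8.01% at WT line 1 CT34. All other probes off chromosome 7 had shares of 4.86% ± 0.01 (SD, n = 2) in Bmal1-/-, 4.73% ± 0.01 (n = 2) in WT line 2 and 4.83% ± 0.03 (n = 5) in WT line 1. Relative to them chromosome 11 was 1.53-fold higher in Bmal1-/-, 1.26-fold higher in WT line 2 and 1.67-fold higher in WT line 1.

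**Figure D1:**
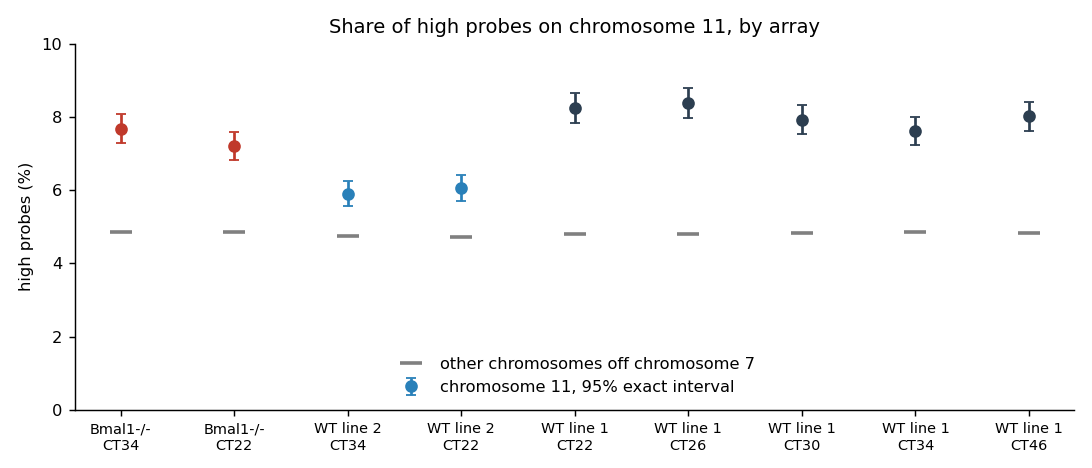
Share of high probes in percent for each of the 9 arrays, with circles for chromosome 11, bars for 95% exact Clopper-Pearson intervals and grey dashes for all other chromosomes off chromosome 7. Every chromosome 11 share, from 5.91% to 8.38%, lies above the dash of its own array, and the pair of WT line 2 arrays is the lowest.

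The excess was set against other chromosomes within each array. Chromosome 11 exceeded all other probes off chromosome 7 by 2.64 percentage points on average (SD 0.87, n = 9) and was higher on 9 of 9 arrays (adjusted p = 0.00521, exact sign-flip permutation test, two-sided). It exceeded chromosome 15 by 0.86 points ± 0.36 and chromosome 10 by 1.58 points ± 0.34, again on 9 of 9 arrays (adjusted p = 0.00521 each, exact sign-flip permutation test over 9 arrays, the smallest raw p possible being 0.00391). Chromosome 19 went the other way: chromosome 11 was lower by 0.47 points on average (SD 0.49) and higher on 1 of 9 arrays, WT line 2 CT22 (p = 0.0195 raw and adjusted over the 4 comparisons, exact sign-flip permutation test over 9 arrays). Measured as the mean log2 ratio in place of the share, the difference between chromosomes 11 and 19 was 0.01 and positive. The 9 arrays come from 3 cell lines, so they are not 9 independent cultures. The chromosome was also picked with earlier results of these data known, which may in part give its excess over other chromosomes. Off chromosome 7, chromosome 11 ranked first among the chromosomes on WT line 2 CT22 and was number 2 on the other 8 arrays.

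Chromosome 11 is the most gene-dense of the 18 autosomes other than chromosome 7, with 13.5 protein-coding genes per Mb in the RefSeq annotation of GRCm38.p6, and it ranks number 8 for probes per Mb. Across these 18 autosomes the share of high probes followed gene density, with r = 0.67 in Bmal1-/-, 0.86 in WT line 2 and 0.70 in WT line 1 (Spearman's rho 0.42, 0.80 and 0.53). It followed probe density less closely, with r = 0.36, 0.17 and 0.30 (Spearman's rho 0.32, 0.17 and 0.27). By rank the 2 densities lay closer together in Bmal1-/-, at 0.42 and 0.32. These correlations are descriptions over chromosomes measured on the same arrays.

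Chromosome 11 was then divided into 119 windows of 1 Mb, with a median of 154 probes, and 475 windows of 250 kb, with a median of 39. A window was called a contact on 1 array when its number of high probes exceeded the share off chromosome 7 in a one-sided binomial test at an adjusted p under 0.05. Such a call describes 1 array. The test takes probes as independent, while high probes within about 1 Mb clustered, as given below. The adjusted p of a call may therefore be too small. In Bmal1-/- 36 of the 119 windows were called at CT34 and 29 at CT22, where 9.25% and 7.26% of all 2411 windows off chromosome 7 were called. In WT line 2 only 8 and 4 windows were called at CT34 and CT22, beside 1.66% and 0.539% of all. In WT line 1 the counts were 41, 38, 36, 38 and 41 from CT22 to CT46, beside 10.5%, 12.3%, 11.6%, 9.79% and 11% of all windows off chromosome 7.

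All 5 WT line 1 arrays called the same 25 windows, which is 21.01% of the chromosome's windows, where 5.06% of all windows off chromosome 7 were called on all 5. Another 10 of the 119 windows were called on 4 of the 5 arrays, beside 64 of all 2411 windows off chromosome 7. Shares in WT line 1 ran from 12.02% to 23.6% in the 25 windows and from 10.8% to 14.6% in the 10 just outside. Of the 25 windows, 25 were called in Bmal1-/- at CT34 and 21 at CT22, so 21 were called on all 7 arrays of these lines, beside 3.44% of all windows. WT line 2 called 6 of the 25 at CT34 and 4 at CT22. No matching count off chromosome 7 is given for these WT line 2 calls. The window from 102000001 to 103000000 was the only one on chromosome 11 called on all 9 arrays, beside 0.249% of all windows. Its shares of high probes were 15.04% and 13.5% in Bmal1-/- at CT34 and CT22, 15.04% and 15.8% in WT line 2 at CT34 and CT22, and between 12.8% and 24.1% in WT line 1. The groups overlapped there.

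The 25 windows formed 13 blocks, 8 of them of 1 Mb. The blocks were not spread evenly. The first 20 Mb of coordinates held 3 contact windows, all at the start of the probed sequence, the segment from 20 to 40 Mb held 0 and that from 40 to 60 Mb held 1. The following 3 segments of 20 Mb held 7, 6 and 7, and the last 2 windows of the chromosome held 1. Bmal1-/- had a mean share of 4.66% ± 0.14 from 20 to 40 Mb and of 9.61% ± 1.24 from 100 to 120 Mb (SD, n = 2). In these segments WT line 2 had 4.96% ± 0.43 and 7.90% ± 0.33 (n = 2), and WT line 1 had 4.51% ± 0.41 and 10.1% ± 0.73 (n = 5).

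**Figure D2:**
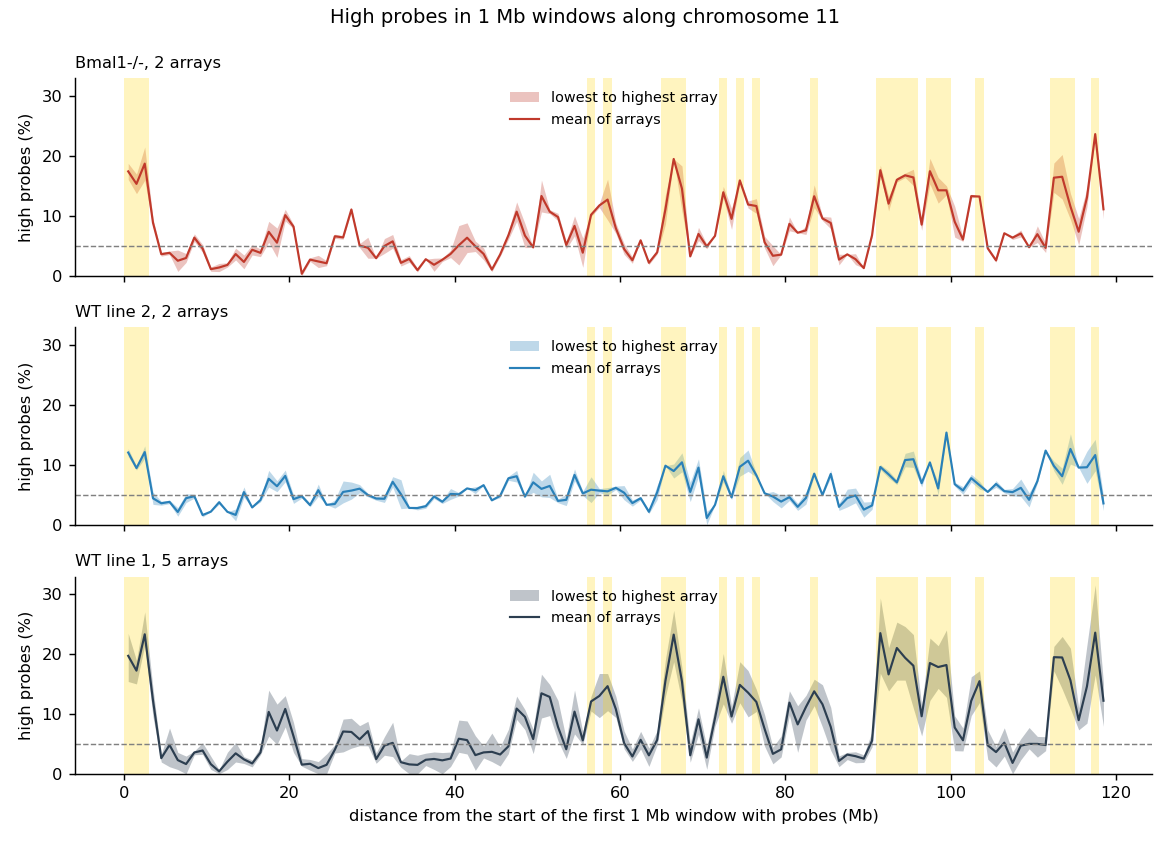
Share of high probes in percent in each of 119 windows of 1 Mb, against the distance in Mb from the start of the first window, for Bmal1-/- (2 arrays), WT line 2 (2 arrays) and WT line 1 (5 arrays). Lines are means, bands span the lowest to the highest array, yellow marks the 13 blocks called on all 5 WT line 1 arrays and the dashed line is 5%; peaks stand at the start and along the distal part, and they are lower in WT line 2.

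The block of highest share lay from 120000001 to 121000000, close to the distal end of the probed sequence. Its shares were 23.3% and 24.1% in Bmal1-/- at CT34 and CT22, 14.3% and 9.02% in WT line 2 at CT34 and CT22, and 30.1%, 31.6%, 22.6%, 17.3% and 16.5% in WT line 1 from CT22 to CT46. Bmal1-/- lay within the range of WT line 1, and WT line 2 lay below it. In WT line 1 the 2 later arrays were the lowest, yet the exact interval at CT22, 22.4% to 38.6%, overlapped that at CT46, 10.7% to 23.97%. The order of times differed in WT line 2, where CT34 was above CT22. CT34 minus CT22 in WT did not pass for this window (log2 difference -0.09, SE 0.44, adjusted p = 1.000, limma, no term for line). Nor did the 24 h rhythm (adjusted p = 0.771, limma).

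The proximal block from 3000001 to 6000000 was the steadiest of the 5 blocks of highest share. It had 18.2% and 16.1% high probes in Bmal1-/- at CT34 and CT22, 11.2% on both WT line 2 arrays, and 19.7%, 21.1%, 20.0%, 20.0% and 19.5% in WT line 1 from CT22 to CT46. The 3 groups did not overlap. The longest block, 5 Mb from 94000001 to 99000000, had 15.6% in Bmal1-/- at both times, 9.87% and 8.87% in WT line 2, and 19.7%, 23.2%, 18.3%, 16.2% and 20.0% in WT line 1. Its 5 windows were all called on both Bmal1-/- arrays, 2 on WT line 2 at CT34 and 0 at CT22.

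The block from 100000001 to 103000000 had 17.2% and 13.8% in Bmal1-/- at CT34 and CT22, 10.1% and 11.01% in WT line 2, and 16.3% to 22.2% with a median of 17.2% in WT line 1. The block from 115000001 to 118000000 had 17.6% and 12.01% in Bmal1-/-, 9.56% and 10.8% in WT line 2, and 15.2% to 21.3% with a median of 18.4% in WT line 1. In both, Bmal1-/- CT34 fell inside the WT line 1 range and Bmal1-/- CT22 below it. Mean shares of the other 8 blocks in WT line 1 ran from 12.02% to 17.7%.

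Since the blocks were chosen by their WT line 1 shares, a lower share elsewhere is in part what the choice gives, and no test was made of it. The mean share was lower than in WT line 1 in 11 of the 13 blocks in Bmal1-/- and in 13 of 13 in WT line 2. All 13 blocks were above 5% on both Bmal1-/- arrays, and 11 were above 5% on both WT line 2 arrays. On the scale of mean log2 ratios the order of the genotypes turned, and 13 of 13 blocks were higher in Bmal1-/- than in WT line 1, while the ratios of the Bmal1-/- CT34 array were also the widest of the 9.

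The 250 kb windows resolved the blocks less firmly. Only 5 windows of 250 kb were called on all 5 WT line 1 arrays, beside 0.295% of all such windows off chromosome 7, and they started at 5250001, 53500001, 77750001, 96000001 and 100750001. The one at 53500001 lay outside the 13 blocks of 1 Mb windows. Each of the 5 was called on 1 of the 2 Bmal1-/- arrays and on 0 WT line 2 arrays. The window from 100750001 to 101000000 had 19.5% high probes in Bmal1-/- (24.4% and 14.6%), 12.2% in WT line 2 (9.76% and 14.6%), and 29.8% ± 2.04 in WT line 1 (26.8% to 31.7%, SD, n = 5). WT line 1 lay above all other arrays in that window. These 5 windows were picked by their calls in WT line 1, which in part gives this order, and no test was made of it. A stretch of adjacent windows, each called on at least 1 WT line 1 array, ran for 4500 kb from 93750001 to 98250000.

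Inside the 3 blocks of highest share, the 250 kb window of highest share had values that varied by array. From 120000001 to 120250000, 31.0% and 34.5% of 29 probes were high in Bmal1-/- at CT34 and CT22, 17.2% and 6.90% in WT line 2, and 20.7% to 34.5% with a median of 31.0% in WT line 1. From 5250001 to 5500000 the shares of 35 probes were 22.9% and 20.0% in Bmal1-/-, 14.3% and 8.57% in WT line 2, and 22.9% to 28.6% in WT line 1. From 94750001 to 95000000 they were 22.2% and 18.5% of 27 probes in Bmal1-/-, 7.41% and 0% in WT line 2, and 18.5% to 44.4% in WT line 1. Bmal1-/- overlapped WT line 1 in each of these windows, and WT line 2 lay below WT line 1 in each. The blocks were chosen by their WT line 1 shares, so no test was made of this order.

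The spread between the 5 WT line 1 arrays at 250 kb had a median SD of 3.08 percentage points over 475 windows. It was largest from 60250001 to 60500000, where shares were 36.4%, 18.2%, 0%, 13.6% and 9.09% from CT22 to CT46, on 22 probes. From 70500001 to 70750000 they were 24.3%, 24.3%, 43.2%, 18.9% and 10.8%. From 100250001 to 100500000 they were 29.3%, 34.1%, 7.32%, 36.6% and 24.4%. In the last of these CT30 was the low array, and in the one before it CT30 was the high one, so these windows shared no order of times.

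Probes that were high together on 1 array lay within about 1 Mb of each other more often than independent probes would. In Bmal1-/-, pairs of chromosome 11 probes 50 to 100 kb apart were both high 1.37 times as often as independence gives. The ratio was 1.24 at 500 to 1000 kb, 1.12 at 1000 to 2000 kb and 1.00 at 2000 to 5000 kb. At these distances it was 1.12, 1.06, 1.05 and 0.98 in WT line 2, and 1.51, 1.33, 1.19 and 1.02 in WT line 1. The ratio was thus close to 1 at 2000 to 5000 kb in every group, and its height at shorter distances differed.

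**Figure D3:**
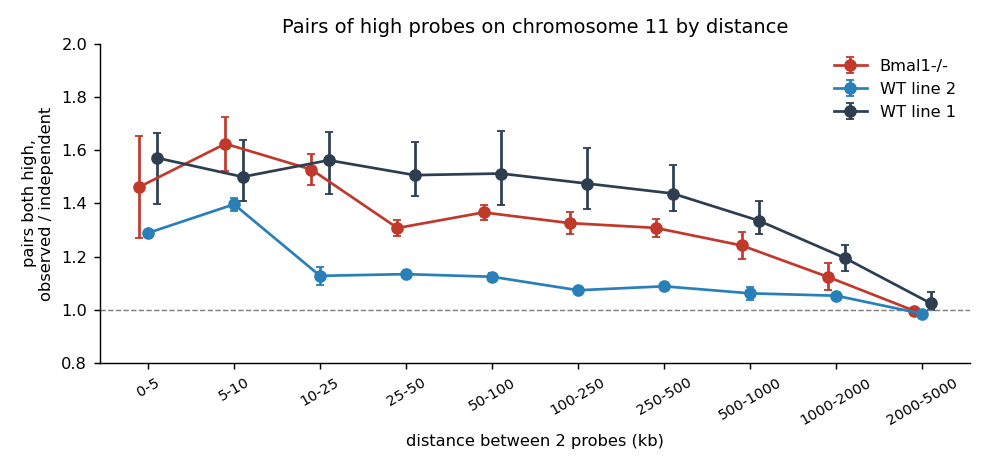
Number of probe pairs on chromosome 11 that were both high, divided by the number independence gives, against the distance between the 2 probes in kb. Points are means of 2 Bmal1-/-, 2 WT line 2 and 5 WT line 1 arrays and bars span the lowest to the highest array; the dashed line is 1, which the means reach at 2000 to 5000 kb.

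The same probes recurred as high within WT line 1 and in Bmal1-/-. On all 5 WT line 1 arrays 82 probes of chromosome 11 were high, or 0.447% of its probes, beside 0.245% off chromosome 7. Of these 82, 70 were also high in Bmal1-/- at CT34 and 72 at CT22, or 85.4% and 87.8%. On these arrays 7.69% and 7.20% of all chromosome 11 probes were high. In WT line 2, 7 and 5 were high at CT34 and CT22, or 8.54% and 6.10%. These lie near the 5.91% and 6.05% of all chromosome 11 probes. Matching shares for recurrent probes off chromosome 7 are not given here. Contact windows held 44 of the 82, or 53.7%, beside 20.1% of the chromosome's probes. Silent windows held 5, or 6.10%, beside 30.2% of its probes. Both classes were set by the high probes of the same WT line 1 arrays. That choice in part gives this order, so no test was made of it. WT line 1 CT34 shared more high probes with the Bmal1-/- arrays than other pairs among these 2 lines did, with 6.05 and 6.601 times the number given by independence at CT34 and CT22 of Bmal1-/-, against 2.98 to 4.14 for the 18 pairs of WT line 1 and Bmal1-/- arrays that hold neither these 2 pairs nor the Bmal1-/- pair. The Bmal1-/- arrays shared 5.07 times and the WT line 2 arrays 7.75 times as many with each other. At the neighbouring probe these excesses were smaller, 1.62 and 1.34 for WT line 1 CT34 with Bmal1-/- CT34 and CT22, and 1.33 for the WT line 2 pair. Whether array, labelling or cells underlie the shared probes was not tested. The window comparison of Bmal1-/- with all 5 WT line 1 arrays is also given without WT line 1 CT34. Its removal is among those behind the ranges without 1 array. Differences between Bmal1-/- and WT line 1 at CT34 rest on this array.

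Across the 119 windows the shares of pairs of arrays correlated at a median r of 0.89 between Bmal1-/- and WT line 1 (0.86 to 0.91 over 10 pairs), 0.67 between Bmal1-/- and WT line 2 (4 pairs), 0.66 between WT line 2 and WT line 1 (10 pairs) and 0.89 within WT line 1 (10 pairs). All windows share the probes and the array, so these are descriptions. In windows with up to 154 probes, the median number, the mean share was 9.03% in Bmal1-/-, 6.63% in WT line 2 and 10.1% in WT line 1. In windows with more probes it was 6.11%, 5.45% and 6.28% in the same lines. The part of probe number in the contact calls was not tested.

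Silent windows were those with a share under 5% on each of the 5 WT line 1 arrays. There were 35 on chromosome 11, or 29.4% of its windows, beside 44.7% of all windows off chromosome 7. They formed 16 stretches. Segments of 20 Mb held 10, 10, 5, 3, 5 and 2 silent windows from the proximal to the distal side, and the last 2 windows held 0. In 250 kb windows 87 of 475 were silent, beside 30.4% of all.

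The longest silent stretch ran for 7 Mb from 36000001 to 43000000 and held 1141 probes. Its shares were 2.63% and 2.19% in Bmal1-/- at CT34 and CT22, 3.51% and 4.38% in WT line 2, and 2.72%, 1.67%, 1.40%, 2.28% and 2.28% in WT line 1. Bmal1-/- lay inside the range of WT line 1, and WT line 2 lay above it. The stretch of 5 Mb from 24000001 to 29000000 had 2.59% and 2.99% in Bmal1-/-, 3.81% and 4.49% in WT line 2, and 1.497% to 2.45% with a median of 1.90% in WT line 1. Here both other lines lay above WT line 1.

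The stretch of 4 Mb from 89000001 to 93000000 ended 1 Mb before the longest contact block. It had 2.59% on both Bmal1-/- arrays, 3.81% and 3.66% in WT line 2, and 2.29% to 3.20% with a median of 2.90% in WT line 1. The stretch from 13000001 to 16000000 was the most silent of these, with 1.18% and 1.66% in Bmal1-/-, 2.84% and 2.61% in WT line 2, and 0.948% to 2.13% with a median of 1.18% in WT line 1. From 17000001 to 20000000 the shares were 2.58% and 4.37% in Bmal1-/-, 4.56% and 3.77% in WT line 2, and 2.18% to 2.98% with a median of 2.58% in WT line 1. Each of these 5 stretches was under 5% on all 9 arrays.

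Windows of 250 kb without a high probe were counted on chromosome 11 alone, so no share over all windows is given. Of its 475 windows, 2 held no high probe on any of the 9 arrays. They ran from 16250001 to 16500000, where 0 of 29 probes per array allow a share of up to 10.3%, and from 38000001 to 38250000, where 0 of 38 allow up to 7.89%. In the 35 silent windows of 1 Mb together, the share was 2.96% ± 0.32 in Bmal1-/- (SD, n = 2), 4.00% ± 0.20 in WT line 2 (n = 2) and 2.41% ± 0.16 in WT line 1 (n = 5). In the 25 contact windows it was 15.1% ± 1.46, 9.40% ± 0.15 and 17.6% ± 1.22. Contact windows lay above silent ones on all 9 arrays. Both classes were set on WT line 1, which fixes this order there and in part gives a smaller distance in the other lines, so no test was made. The contact windows held 20.1% of the chromosome's probes and 40.6% of its high probes in Bmal1-/-, 31.6% in WT line 2 and 43.9% in WT line 1.

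**Figure D4:**
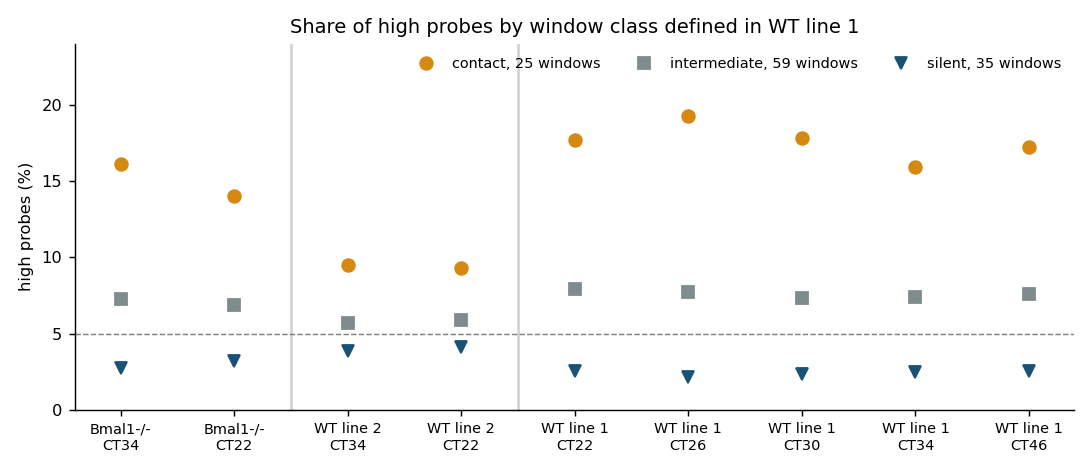
Share of high probes in percent for each of the 9 arrays in the 25 contact, 59 intermediate and 35 silent windows of 1 Mb, classes that were set on the WT line 1 arrays. Contact windows lie above 5% (dashed) and silent windows below it on every array, with the narrowest distance in WT line 2.

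The comparison of Bmal1-/- with WT asks whether contacts depend on the clock activator. The share of high probes on the whole chromosome was 7.44% ± 0.34 in Bmal1-/- (SD, n = 2) and 8.04% ± 0.29 in WT line 1 (n = 5), a difference of -0.60 percentage points (p = 0.190, exact permutation test, two-sided, where 2 against 5 arrays cannot give less than 0.0952). At CT34 Bmal1-/- was higher by 0.07 points and at CT22 it was lower, by -1.04 points. On the mean log2 scale the sign turned, with 0.40 ± 0.12 in Bmal1-/- and 0.28 ± 0.04 in WT line 1.

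Window means were fitted over the 6 arrays at CT34 and CT22, with limma and time as a term. In this fit 0 of 119 windows passed an adjusted p of 0.05, beside 0% of the 2549 windows of the genome. It has no term for line, so the difference between the WT lines stays in its residual. At an unadjusted p under 0.05 there were 26 windows, or 21.8%, all higher in Bmal1-/-, beside 24.7% of all windows. The median log2 difference on chromosome 11 was 0.22, and it was 0.14 over all windows. With quantile normalization these medians were 0.01 and -0.02. Both Bmal1-/- arrays lay above all 5 WT line 1 arrays in 35 of 119 windows, beside 38.4% of all windows, and below all 5 in 0, beside 0.235%.

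The 3 windows of smallest p were neighbours, from 110000001 to 113000000. The first of them is silent in WT line 1. It had mean log2 ratios of 0.41 and 0.26 in Bmal1-/- at CT34 and CT22, 0.08 and 0.02 in WT line 2, and -0.05, -0.08, -0.0045, -0.05 and 0.0003 in WT line 1 from CT22 to CT46. Both Bmal1-/- arrays lay above the 7 WT arrays. The log2 difference was 0.34 (SE 0.06, adjusted p = 0.193, limma, 6 arrays). Its share of high probes was 6.67% and 6.06% in Bmal1-/-, 6.06% and 4.85% in WT line 2 and 0.606%, 1.82%, 3.64%, 0% and 3.03% in WT line 1, where 0 of 165 probes allows up to 1.82%. By the share, WT line 2 overlapped Bmal1-/- and lay above WT line 1.

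The second window, from 111000001 to 112000000, had 0.46 and 0.23 in Bmal1-/-, 0.06 and 0.03 in WT line 2 and 0.01 to 0.14 in WT line 1 on the mean log2 scale, a difference of 0.30 (SE 0.06, adjusted p = 0.193, limma). The next, from 112000001 to 113000000, had 0.45 and 0.30 in Bmal1-/-, 0.01 and 0.04 in WT line 2 and 0.09 to 0.22 in WT line 1, a difference of 0.30 (SE 0.07, adjusted p = 0.193, limma). In 6 of the 12 windows of 250 kb in this region both Bmal1-/- arrays lay above all 5 WT line 1 arrays, and in 0 below, beside 21.4% and 1.01% of all windows of 250 kb. The region was picked by its p in this comparison, so this count is a description.

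With limma's robust and trend settings 9 of the 119 windows passed, all higher in Bmal1-/-, beside 13.3% of all windows. Set against all 5 WT line 1 arrays, without WT line 2 and without a time term, 6 windows of chromosome 11 passed (limma), beside 9.18% of all windows, all higher in Bmal1-/-. They started at 110000001, 28000001, 111000001, 56000001, 77000001 and 112000001, with adjusted p from 0.00887 to 0.0459 (limma). Each line had 1 array per time, so the times of a line stand in for repeats of a genotype here. These p-values thus do not measure the spread between cultures or between lines of a genotype. In this comparison the window at 110000001 differed by 0.37 (SE 0.05). In further settings, chosen after seeing the data, 3 windows passed with arrays scaled by their SD, beside 5.53% of all windows, 1 with quantile normalization, beside 0.863%, and 2 without WT line 1 CT34, beside 4.32%. Measured by the share, limma gave 0 windows after adjustment and 14 before it at the same threshold, beside 9.61% before adjustment. No hour is recorded from the array names of WT line 1 CT26 and both Bmal1-/- arrays. The sample labels used here do not say whether this marks a batch, and its part was not tested.

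**Figure D5:**
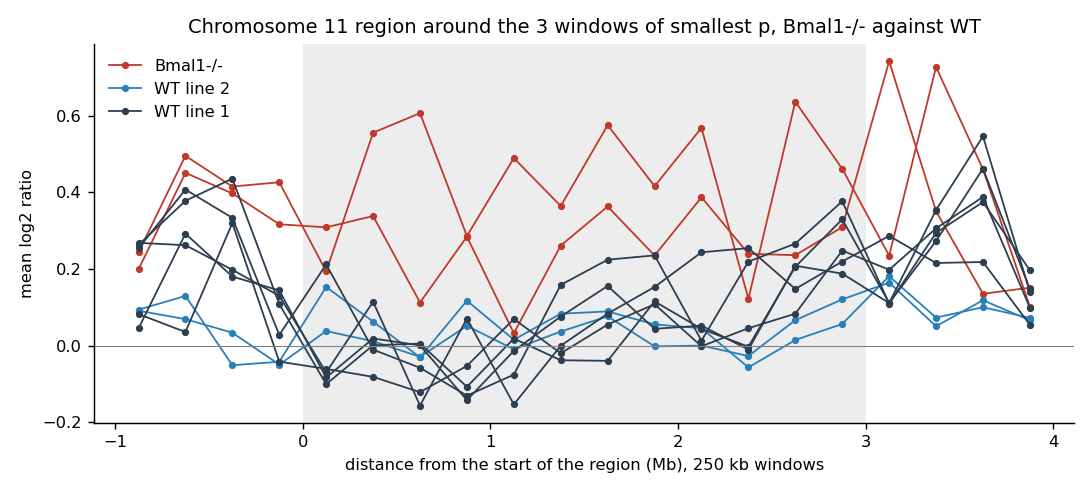
Mean log2 ratio in windows of 250 kb against the distance in Mb from the start of the 3 neighbouring windows (grey band), 1 line per array. Both Bmal1-/- lines run above all WT line 1 lines in 6 of the 12 windows of the band, while WT line 2 stays between -0.06 and 0.15 there.

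The comparison of CT34 with CT22 asks whether contacts change between opposite circadian times. The whole-chromosome share was lower at CT34 than at CT22 by -0.62 percentage points in WT line 1 and by -0.15 in WT line 2, and it was higher by 0.49 in Bmal1-/-. Over both WT lines the difference was -0.38 points (p = 0.667, exact permutation test, two-sided, where 2 against 2 arrays cannot give less than 0.333). It turned to 0.71 points without WT line 1 CT22 and to 0.47 without WT line 2 CT34. Leaving out 1 array unbalances the lines between the times, so these values also hold the difference between the lines. Within each WT line the change was negative, as given above. In window means without a term for line, 0 of 119 windows passed in WT (limma, 4 arrays), beside 0% of all. An unadjusted p under 0.05 was found in 0, again beside 0% of all. This fit leaves the wide difference between the lines in its residual, so its result does not show that contacts stayed the same. With the cell line as a replicate block, 0 passed, beside 0.235% of all windows, the smallest adjusted p being 0.170 (limma). In that fit 14 windows, or 11.8%, reached an unadjusted p under 0.05, 4 higher and 10 lower at CT34, beside 7.02% of all.

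In the fit without the block, the smallest p belonged to the silent window from 48000001 to 49000000. WT line 1 had 0.12 at CT34 and 0.03 at CT22 there, and WT line 2 had 0.07 at CT34 and 0.04 at CT22. The log2 difference was 0.06 (SE 0.05, adjusted p = 1.000, limma). The window from 13000001 to 14000000 had a difference of -0.06 (SE 0.05) and that from 28000001 to 29000000 one of -0.07 (SE 0.06), both with an adjusted p of 1.000 (limma). Among the 13 contact blocks, the share at CT34 was below that at CT22 in 7 in WT line 1, in 5 in WT line 2 and in 4 in Bmal1-/-. Across windows, the CT34 minus CT22 change of WT line 2 and that of WT line 1 correlated at r = 0.18 (n = 119 windows of the same arrays, a description).

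For the genotype by time interaction 0 of 119 windows passed (limma, 6 arrays), beside 0% of all, and 0 had an unadjusted p under 0.05, beside 0.51% of all. The smallest p were at 64000001, 111000001 and 40000001, with log2 interaction estimates of 0.20, 0.19 and 0.20 and adjusted p of 0.994 each (limma). With the cell line as a replicate block, 57 of 119 windows passed, all positive, beside 25.6% of all windows (limma), the smallest adjusted p being 2.27e-07. With the same block and arrays scaled by their SD, quantile normalization or the share of high probes, settings chosen after seeing the data, 0 passed in each case, and 23, 13 and 11 had an unadjusted p under 0.05, beside 9.93%, 7.89% and 8.04% of all windows. The Bmal1-/- CT34 array had the largest SD of all arrays, 1.01. Bmal1-/- had 1 array per time, so its change in time has no repeat. The p-values of the interaction, with or without the block, do not measure the spread of that change. Without the block, the difference between the WT lines also stays in the residual.

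The 5 times of WT line 1 and 2 of WT line 2 allow a test for a rhythm of 24 h in WT, with line as a term. It passed in 0 of 119 windows (limma, 7 arrays), beside 0% of all, and 7 windows, or 5.88%, had an unadjusted p under 0.05, beside 6.43% of all. The window of smallest p, from 60000001 to 61000000, had mean log2 ratios of 0.61, 0.34, 0.47, 0.68 and 0.65 from CT22 to CT46 in WT line 1, an amplitude of 0.29 (adjusted p = 0.668, limma). In WT line 2 it had 0.06 at CT34 and 0.07 at CT22. The windows starting at 30000001 and 104000001 followed, with amplitudes of 0.11 and 0.16 and the same adjusted p of 0.668 (limma).

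The 2 WT lines differed widely on these arrays. Each line had 1 array per time, so CT34 and CT22 stand in for repeats of a line in this fit. Its moderated variance also draws on all windows of the genome. The p-values thus do not measure the spread between cultures of a line. At CT34 and CT22, 77 of 119 windows passed (limma, 4 arrays, time as a term), beside 52.7% of all windows. Of these 76 were lower in line 2, where 52.2% of all windows were, and 1 was higher, the window at 110000001 (log2 difference 0.10, SE 0.04, adjusted p = 0.0391, limma). The window from 69000001 to 70000000 had 0.12 and 0.09 in line 2 at CT34 and CT22 and 0.97 and 0.87 in line 1 (difference -0.82, SE 0.04, adjusted p = 2.14e-16, limma). The windows starting at 101000001 and 97000001 differed by -0.78 and -0.68 (adjusted p = 7.28e-16 and 1.40e-14, limma). A further 7 of smallest p, starting at 100000001, 5000001, 94000001, 120000001, 3000001, 115000001 and 116000001, differed by -0.63 to -0.80. All 10 lie in contact blocks, which hold 25 of the 119 windows. The blocks were chosen by high shares in WT line 1, including its CT34 and CT22 arrays used in this fit. That choice in part gives this placement, and no test was made of it.

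The ratios of line 2 were narrow, with an SD of 0.36 and 0.35 at CT34 and CT22, against 0.82 and 0.72 in line 1. With each array divided by its own SD, 54 windows passed, beside 28% of all. All 54 were lower in line 2, beside 27.7% of all windows, and 0 were higher, beside 0.314%. In units of that SD the windows starting at 69000001, 101000001 and 97000001 then differed by -0.90, -0.99 and -0.68. With quantile normalization 44 passed, 31 lower, beside 11.7% of all windows, and 13 higher, beside 12.1%. These 3 windows differed by -0.53, -0.58 and -0.34 on that log2 scale. With the share of high probes and with the window median 0 passed, and 35 and 44 had an unadjusted p under 0.05, beside 23.8% and 35.2% of all. In 250 kb windows 186 of 475 passed, all lower in line 2, beside 21.9% of all. The part of the serum, the cross and the hybridization in the difference between the lines cannot be told apart.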

How the data were processed

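The authors' deposited values are log2 ratios of 4C DNA (Cy5) over digested genomic DNA (Cy3), 1 per probe of 59 nt, written by NimbleScan per the file headers, which also record a Tukey biweight shift per array. The log base is the convention of that software and is not written in the files. The sources used here name no build, background correction or filter. The members, lists and rules were chosen with earlier results of these data known.

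Arrays were centred on their median, and probes were grouped in windows of 1 Mb and 250 kb with at least 10 probes. Contact calls used a one-sided binomial test against the share off chromosome 7, Benjamini-Hochberg adjusted per array over all windows off chromosome 7. Window means were fitted over all 2549 windows of the genome by two-sided moderated tests (lmFit, eBayes; limma 3.58.1, R 4.3.3). Whole-chromosome shares were compared by exact permutation, the p being 2 times the smaller tail. Named windows were the 5 contact blocks of highest WT line 1 share and the longest, the 5 longest silent stretches (ties by lower share), the 3 windows of smallest p per comparison and up to 10 that passed, the highest 250 kb window of the top 3 blocks, and the 3 of largest SD over WT line 1. Windows that passed against all 5 WT line 1 arrays, the 250 kb windows called on all 5 WT line 1 arrays and the window called on all 9 arrays were added after their values were seen. Intervals are at 95%, and a count of 0 was bounded by 3 counts. The fits were tested on simulated data. Other steps ran in Python 3.11.15 (scipy 1.17.1, numpy 2.4.6, matplotlib 3.10.9, pandas 2.3.3).

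Replicate numbers of WT arrays name the 2 cell lines and so pair the arrays at CT34 and CT22. The line 2 minus line 1 differences at both times correlated at r = 0.91 over 119 windows of chromosome 11 and 0.85 over 2411 off chromosome 7. Nothing in the labels says that cultures were repeated within a line, so p-values measure the spread between these arrays.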

Additional observations from a re-analysis of the deposited data

Results flagged for a closer look

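The whole-chromosome share of high probes stood out for its direction in time. CT34 minus CT22 was 0.49 percentage points in Bmal1-/- and of the opposite sign in both WT lines, -0.15 in WT line 2 and -0.62 in WT line 1. The difference between the genotypes was not tested at this level, and each of the 3 values rests on 1 array per time.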

How the results depend on the processing

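Tests and window counts were recomputed under the alternatives, while correlations, shared probes and class shares were not. Settings against all 5 WT line 1 arrays, and those joining the block to a scaling, change several choices together. The share of high probes, Bmal1-/- minus WT line 1, kept its sign except as mean log2 ratio (0.12), and leaving out 1 array gave -0.84 to -0.35. CT34 minus CT22 in WT ran from -1.48 to 0.71 when 1 array was left out, turning positive without WT line 1 CT22 or WT line 2 CT34. This range also holds the difference between the WT lines, which leaving out 1 array no longer balances. Chromosome 11 minus 19 was -0.59 to -0.39 without 1 array, -0.43 with the 90th percentile (no longer past the threshold) and 0.012 as mean log2 ratio, and it was 0.86 with chromosome 15 and 1.58 with chromosome 10 in its place. Contact windows numbered 0 with the 99th percentile, 5 in 250 kb windows and 5 against the share of chromosome 11 itself, and 26 to 29 without 1 array. Silent windows numbered 18 with the 99th percentile, 87 in 250 kb windows and 35 to 38 without 1 array.

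Windows higher in Bmal1-/- numbered 9 with limma's robust and trend settings, 6 against all 5 WT line 1 arrays, and, chosen after seeing the data, 3 with SD scaling, 1 with quantile normalization and 2 without WT line 1 CT34. With the replicate block 0 passed for genotype, 0 for time and 57 for the interaction. Differences between the lines passed in 186 windows of 250 kb, in 0 with the median or the share and in 44 with quantile normalization. Leaving out 1 array gave 0 passing windows for genotype, time, interaction and rhythm. The line comparison without 1 array, and the interaction without a Bmal1-/- array, could not be fitted. Among named windows 4 values turned: 48000001 for time by the median (-0.005), 111000001 for the interaction by share (-3.82) and quantile (-0.037), and 112000001 against 5 WT line 1 arrays by share (-0.24). The cause was not tested. Fits of the share gave some windows a residual variance of 0.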
